A study of Mus musculus with 76 samples.

Results

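Rab GTPases are the small GTP-binding proteins that give each membrane compartment of a cell its identity. The genes of this family were followed through 75 single cells: macrophages of the AV (atrioventricular) node of mice, where the heartbeat is passed from atria to ventricles. Members were the rows of the deposited expression table whose symbol is Rab, a number, and at most a letter and a further digit, so that effectors such as Rab11fip1 stayed out. The rule found 32 of the 9235 genes of the table. Members of the family without a row, among them Rab4a, Rab13, Rab27a and Rab38, are not analysed here.

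A Rab protein cycles between a GDP-bound form held in the cytosol by GDP dissociation inhibitors (GDI) and a GTP-bound form on a membrane. Guanine nucleotide exchange factors (GEF) load it with GTP, GTPase-activating proteins (GAP) return it to the GDP form, and effectors read the active form to tether, move or fuse vesicles. Macrophages use this machinery to take up particles, to mature phagosomes into degrading compartments by way of early and late endosomes, to recycle receptors, and to deliver antigen and secreted products to the surface.

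All libraries came from 1 group without a treated or control arm: AV node macrophages of wild-type (WT) mice of strain C57BL/6J, whose age, sex, number, chip and batch the labels do not give. Cells were taken from enzymatically digested AV nodes by flow cytometry with a gate that took lineage-low cells carrying much CD45, CD11b and F4/80 and little or intermediate Ly6C. They were captured singly on a Fluidigm C1 chip, and full-length cDNA was amplified with SMARTer chemistry, which keeps no strand and adds no molecular identifiers. Because cells of unknown animals make up a single sample, values describe these cells, no difference between conditions could be tested, and each interval reflects only which cells happened to be sampled.

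Estimated depth ran from 259557 to 6272155 reads over the 76 libraries (median 2122724), and genes above 0 numbered from 2324 to 4382. The libraries of transcriptomes 13 and 19 stood apart: the correlation of their log2(CPM + 1) values was 0.978, against at most 0.421 in the other 2849 pairs. They were counted as 1 cell by their mean, which gives n = 75. Each of the 14 macrophage markers with a row was detected in 50% of cells or more, and none of 16 markers of B cells, T cells, neutrophils, dendritic cells, cardiomyocytes, endothelium and glia or neurons was; the most widely detected of these was above 0 in 31 cells. The summed level of each of these 7 lists had a median over cells of 0 to 5.0 CPM, while single cells reached 5828 CPM for dendritic cell genes; fibroblast, NK cell, mast cell and erythroid markers are not analysed here.

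Levels are counts per 1000000 (CPM), as deposited by the authors. CPM is not divided by gene length, so mean levels of different genes are ranked as CPM per kilobase (kb) of annotated exon. Shares of the summed Rab CPM and counts of cells at 10 CPM are not corrected for length. A gene is called detected in a cell where it is above 0, and a second count at 10 CPM is given because 39.4% of the 1080 member values above 0 lay below it. Of the 32 members, 12 (37.5%) passed 50% of the cells by values above 0, as did 23.9% of all genes. At 10 CPM the count was 5 members (15.6%), against 8.88% of all genes. After every cell was thinned to 250000 estimated reads it was 7 members (21.9%), against 13.1% of all genes. The median member was above 0 in 29.5 cells and the median gene of the table in 20. The mean level per kb was above the median of all genes in 20 of the 32 members.

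**Figure D1:**
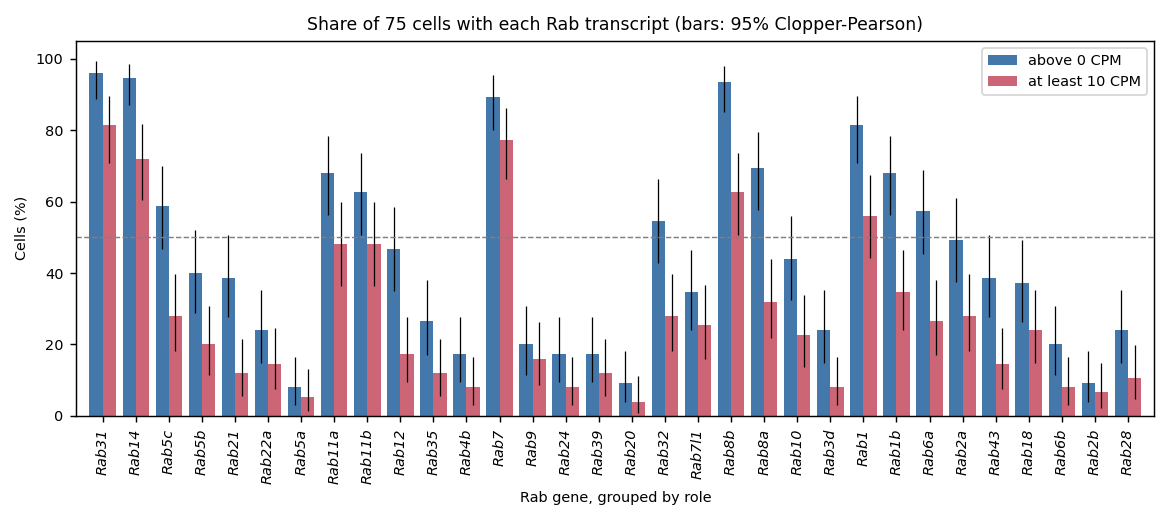
Share of the 75 cells (y axis, percent) in which each Rab gene (x axis, grouped by role) was above 0 CPM (blue) or at least 10 CPM (red); error bars are exact 95% Clopper-Pearson intervals and the dashed line marks 50%. Rab31, Rab14, Rab8b, Rab7 and Rab1 are the 5 genes whose red bars pass 50%.

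Rab31, Rab14, Rab8b, Rab7 and Rab1 were the members at 10 CPM or more in at least 50% of the cells. All 5 were above 0 together in 48 cells and at 10 CPM together in 17. They belong to different compartments, early endosome and trans-Golgi (Rab31, Rab14), plasma membrane (Rab8b), late endosome (Rab7) and the exit from the endoplasmic reticulum (Rab1). Rab5a, Rab20 and Rab2b lay at the other end and were above 0 in 6, 7 and 7 cells.

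Promoter sequences are shown for the most and the least widely detected members, so that a reader can see the DNA ahead of genes at both ends of the range. RefSeq promoters (build GRCm38.p6, which differs from the build named for the deposited table) were found for 30 of the 32 members. Each line gives the 250 bases before the annotated start, 5′ to 3′ on the gene's strand. Rab31 lies at chr17:65772753-65773002 (minus strand) and Rab14 at chr2:35201121-35201370 (minus strand). Rab20 lies at chr8:11478641-11478890 (minus strand), Rab2b at chr14:52279396-52279645 (minus strand) and Rab5a at chr17:53478984-53479233 (plus strand). Capitals mark CACGTG, the E-box core read by the lysosomal regulator TFEB and other bHLH proteins, and GAGGAAGT or its reverse complement ACTTCCTC, a core read by the macrophage factor PU.1.
Rab31: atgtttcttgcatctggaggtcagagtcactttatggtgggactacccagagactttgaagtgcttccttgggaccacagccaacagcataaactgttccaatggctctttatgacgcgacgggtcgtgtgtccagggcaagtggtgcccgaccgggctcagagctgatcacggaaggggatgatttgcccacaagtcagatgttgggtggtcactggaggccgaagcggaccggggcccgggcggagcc
Rab14: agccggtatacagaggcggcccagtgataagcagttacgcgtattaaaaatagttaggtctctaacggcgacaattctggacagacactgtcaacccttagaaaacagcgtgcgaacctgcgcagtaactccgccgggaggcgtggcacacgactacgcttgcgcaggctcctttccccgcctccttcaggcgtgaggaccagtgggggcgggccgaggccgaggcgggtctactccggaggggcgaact
Rab20: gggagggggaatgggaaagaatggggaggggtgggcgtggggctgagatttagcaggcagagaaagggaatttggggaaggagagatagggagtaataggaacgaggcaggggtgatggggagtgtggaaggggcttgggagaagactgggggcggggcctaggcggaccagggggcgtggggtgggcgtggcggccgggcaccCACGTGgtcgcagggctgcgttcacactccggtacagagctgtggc
Rab2b: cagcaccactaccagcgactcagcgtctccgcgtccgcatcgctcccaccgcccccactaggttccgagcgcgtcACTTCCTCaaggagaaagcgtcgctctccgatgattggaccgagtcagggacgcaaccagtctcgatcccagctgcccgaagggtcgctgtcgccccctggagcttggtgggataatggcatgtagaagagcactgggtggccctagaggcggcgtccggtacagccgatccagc
Rab5a: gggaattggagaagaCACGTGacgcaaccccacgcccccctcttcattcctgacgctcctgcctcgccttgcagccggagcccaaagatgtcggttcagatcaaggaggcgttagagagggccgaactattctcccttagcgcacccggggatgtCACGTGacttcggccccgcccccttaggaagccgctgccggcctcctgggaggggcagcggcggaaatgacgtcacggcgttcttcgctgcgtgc

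CACGTG, which reads the same on both strands, was present ahead of 3 of 30 members (10.0%; Rab20, Rab21 and Rab5a), against 6.86% of 27025 genes. GAGGAAGT on either strand was present ahead of 2 members (6.67%; Rab2b and Rab32), against 2.79% of genes. Of the other motifs searched on both strands, TATAAA, the TATA box, was ahead of 1 member (3.33%; Rab7) and 14.3% of genes, and TGACTCA, read by AP-1, was ahead of 0 members and 5.16% of genes. None of the 4 motifs contains another. The dinucleotide CG was counted in the promoter with the most where a gene has several. It had a median of 20.5 per 250 bases in members and 6 over all RefSeq genes, whether or not they have a row in the table. All members are protein-coding, and the RefSeq genes were not limited to such genes. The difference is therefore not read as particular to Rab genes. At least 10 were found in 86.7% of members, against 40.2% of those genes, and Rab32 (5), Rab9 (7), Rab11b (9) and Rab7l1 (9) had fewer. Rab31 had 12 and Rab14, Rab2b and Rab5a had 23 each. A match is a description of the letters and does not show binding.

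Early endosome members were led by Rab31 and Rab14. Rab31, a relative of Rab5 and Rab22a that works between trans-Golgi network and endosomes and in phagocytic cups, ranged from 0 to 10232 CPM with a median of 1459 and a mean of 1945 ± 2113 (SD, n = 75). It was above 0 in 72 cells (96.0%, 95% interval 88.8 to 99.2%), at 1000 CPM or more in 41, between 100 and 1000 in 13, between 10 and 100 in 7, and below 10 in 11. Most cells therefore sat at the high end, while transcriptomes 2, 23 and 36 were at 0 although 13, 13 and 14 other members were above 0 in them. Rab31 had the highest mean of the family per length, 510 CPM per kb, and took 42.1% of the summed Rab CPM, or 35.6% of the sum per kb.

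Rab14, which serves early endosomes, the trans-Golgi network and phagosomes, was above 0 in 71 cells and ranged from 0 to 3757 CPM, with a median of 136 and a mean of 442 ± 699 (SD, n = 75). Only 10 cells reached 1000 CPM. Its mean per length, 144 CPM per kb, came next after Rab31.

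The Rab5 isoforms, the core GTPases of early endosome fusion, were found in fewer cells. Rab5c was above 0 in 44 cells and ranged from 0 to 697 CPM, with a median of 2.0 and a mean of 39.3 ± 111 (SD, n = 75). Rab5b was above 0 in 30 cells and Rab5a in 6, with highest values of 592 and 77.1 CPM. At least 1 isoform was above 0 in all but 21 cells, but at 10 CPM 39 cells had none, 32 had 1, 4 had 2 and 0 had 3. Most cells with a Rab5 transcript at 10 CPM held a single isoform at that level. Each isoform was itself infrequent there, at 10 CPM or more in 21 cells for Rab5c, 15 for Rab5b and 4 for Rab5a. Whether the isoforms avoid each other was not tested. Rab21, an integrin-trafficking relative, was above 0 in 29 cells, 20 of them below 10 CPM, and Rab22a in 18.

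Among recycling members Rab11a and Rab11b, which return cargo from the recycling endosome to the surface, were the most widely detected. Rab11a was above 0 in 51 cells and ranged from 0 to 2886 CPM, with a median of 6.7 and a mean of 195 ± 436 (SD, n = 75). Rab11b was above 0 in 47 cells and ranged from 0 to 331 CPM, with a median of 3.6 and a mean of 55.6 ± 87.4 (SD, n = 75). Both reached 10 CPM in 36 cells, but Rab11b stayed within a narrower range: its SD was 1.57 times its mean, among members above 0 in at least 20 cells the third lowest after Rab31 (1.09) and Rab7 (1.33).

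The pseudogene Rab11b-ps2 shares sequence with Rab11b, and 13.6% of the 50-base words of Rab11b transcripts also occur in transcripts of other genes, Rab11b-ps2 among them. Rab11b-ps2 was above 0 in 29 cells, with a mean of 2.84 CPM, and Rab11b was above 0 in all 29 of them. The rank correlation of the pair over 75 cells was 0.818, and Rab11b values are uncertain to the extent that reads of the copies were divided between the rows.

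Rab12, which acts on recycling and lysosomal delivery of receptors, was above 0 in 35 cells but reached 100 CPM in 1, transcriptome 71, at 685 CPM (mean 14.0 ± 79.3, SD, n = 75, median 0). Rab35, a GTPase of fast endocytic recycling and actin, was above 0 in 20 cells and Rab4b in 13; the highest Rab4b value was 25.5 CPM. Together these 3 members made up little of the summed Rab CPM.

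Rab7, the GTPase that drives late endosomes and phagosomes to fuse with lysosomes, was the leading late endosomal member. It was above 0 in 67 cells (89.3%, 95% interval 80.1 to 95.3%) and ranged from 0 to 1587 CPM, with a median of 89.1 and a mean of 317 ± 421 (SD, n = 75). Of its detections 86.6% were at 10 CPM or more, the highest share in the family. Its mean per length, 122 CPM per kb, followed those of Rab31 and Rab14, and 12.7% of its 50-base words were shared with other genes, among them Rab7-ps1 and Gm5577.

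Rab9, which carries mannose 6-phosphate receptors back to the Golgi, was above 0 in 15 cells, 12 of them at 10 CPM or more, with a highest value of 639 CPM and a mean of 20.6 ± 80.5 (SD, n = 75). Rab39 and Rab24, the latter linked to autophagosomes, were above 0 in 13 cells each, with highest values of 889 and 765 CPM, both in transcriptome 54, and means of 46.9 ± 172 and 15.7 ± 91.5 (SD, n = 75). Rab20, a phagosome-associated member, was above 0 in 7 cells with a highest value of 232 CPM. Each of these members other than Rab7 was at 0 in at least 60 of the 75 cells.

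Rab32 and Rab7l1 (now called Rab29), which belong to the group that builds lysosome-related organelles, differed in how their values were spread. Rab32 was above 0 in 41 cells and ranged from 0 to 1787 CPM, with a median of 0.3 and a mean of 155 ± 405 (SD, n = 75), and 7 cells reached 1000 CPM while 20 lay above 0 but below 10. Rab7l1 was above 0 in 26 cells and ranged from 0 to 943 CPM, with a mean of 53.4 ± 164 (SD, n = 75), and 19 of its 26 detections were at 10 CPM or more.

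Rab8b led the members of exocytosis and the plasma membrane. It was above 0 in 70 cells and ranged from 0 to 3099 CPM, with a median of 42.3 and a mean of 383 ± 711 (SD, n = 75); 12 cells reached 1000 CPM and 23 lay above 0 but below 10. Rab8a, its close relative, was above 0 in 52 cells with a median of 2.3, a mean of 108 ± 348 (SD, n = 75) and a highest value of 2262 CPM in transcriptome 2, and 28 of its detections were below 10 CPM. Rab8b was the higher of the pair per kb in 50 cells and Rab8a in 22. Rab10, which moves glucose transporter and Toll-like receptor vesicles to the surface, was above 0 in 33 cells, up to 1786 CPM, with a mean of 69.3 ± 250 (SD, n = 75). Rab3d, a GTPase of secretory granules, was above 0 in 18 cells, and 67.3% of all its CPM came from transcriptome 50.

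Members of the endoplasmic reticulum and Golgi were headed by Rab1 (now called Rab1a), which directs vesicles from the endoplasmic reticulum to the Golgi. It was above 0 in 61 cells and ranged from 0 to 2616 CPM, with a median of 20.6 and a mean of 182 ± 385 (SD, n = 75). Its isoform Rab1b was above 0 in 51 cells, with a median of 1.4, a mean of 98.4 ± 299 (SD, n = 75) and a highest value of 1616 CPM. Rab6a, which controls traffic within and back from the Golgi, was above 0 in 43 cells, up to 1053 CPM, with a median of 0.5 and a mean of 66.5 ± 189 (SD, n = 75). Of the 50-base words of Rab6a, 19.0% were shared with other genes, among them Mrpl48 and Gm13082. Exons of Mrpl48, on the opposite strand, cover 11.7% of its exon bases. Rab2a was above 0 in 37 cells, up to 818 CPM. Rab43 was above 0 in 29 cells and Rab18, found on the endoplasmic reticulum and lipid droplets, in 28. Rab6b and Rab2b were above 0 in 15 and 7 cells. Rab28, placed in no compartment group here, was above 0 in 18 cells, up to 1748 CPM, with a mean of 55.2 ± 250 (SD, n = 75).

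**Figure D2:**
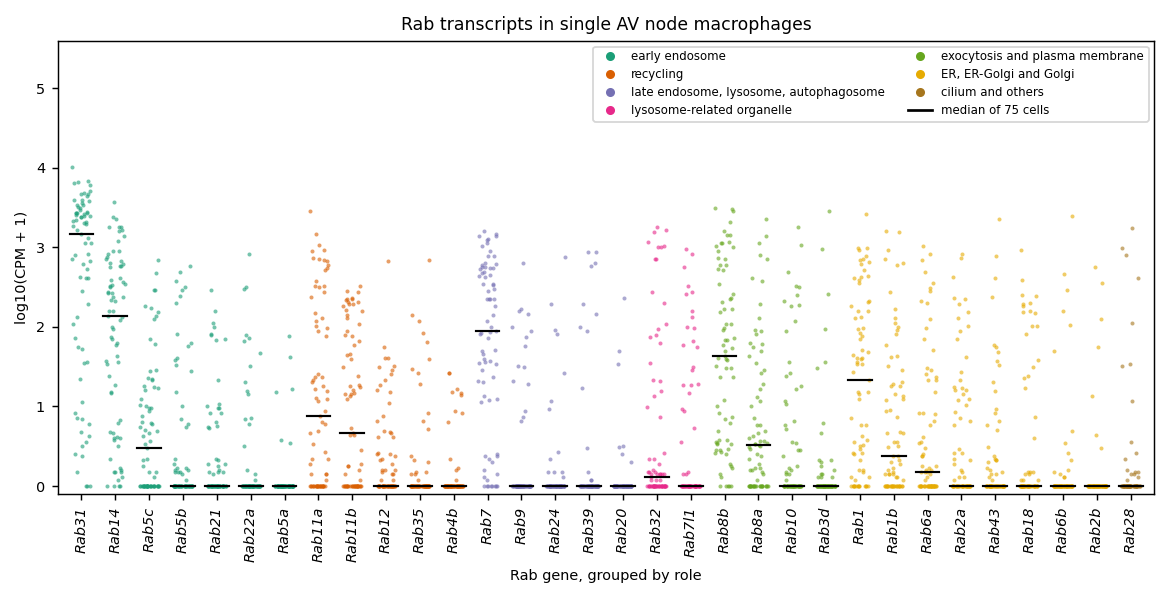
Level of each Rab gene (x axis, grouped and coloured by role) in each of the 75 cells, as log10(CPM + 1) on the y axis; every point is 1 cell and black lines are medians. Rab31 has its median at 1459 CPM, whereas 20 of the genes have a median of 0.

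The spread between cells was wide for every member. Among members above 0 in at least 20 cells, the SD over the mean was largest for Rab12 (5.65), Rab43 (5.26) and Rab35 (5.04). For 9 of the 32 members a single cell supplied more than 50% of all CPM of that gene: Rab20, Rab6b, Rab3d, Rab12, Rab24, Rab43, Rab35, Rab2b and Rab5a. None of these 9 was above 0 in more than 35 cells. The share of all genes with such a dominant cell was not counted. The count of 9 is therefore not read as particular to Rab genes.

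Reads of genes whose exons overlap cannot be told apart there, on the same strand or, without strand information, on opposite strands. In the GENCODE M21 annotation more than 20% of the exon bases of 5 members lie under exons of another gene: Rab4b (85.2%, Gm21983), Rab2b (77.6%, Tox4 and Gm43766), Rab43 (77.3%, Gm45140), Rab24 (66.4%, Prelid1) and Rab20 (25.6%, E230013L22Rik). These 5 were above 0 in 7 to 29 cells, with a median of 13, and the other 27 in 6 to 72, with a median of 35. All 12 members found in 50% of cells or more were among the 27, and so was the least detected, Rab5a (9.3% overlapped). The part of the overlap in the low detection was not tested, and no source used here gives the annotation of the deposited table.

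Single cells held between 8 and 22 Rab genes above 0, with a median of 14, which is 43.8% of the members; the median cell had 34.4% of all genes above 0. At 10 CPM the range was 4 to 15 with a median of 9, and at 100 CPM 1 to 11 with a median of 5. The number of Rab genes above 0 rose with the number of all genes above 0 (Spearman rho 0.671, Pearson r 0.681, n = 75 cells, a description) and less with estimated reads (rho 0.402). At equal depth of 250000 reads the range was 5 to 17 with a median of 11, and rho with estimated reads was 0.139. With the number of all genes above 0 at that depth, rho was still 0.622.

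The summed Rab CPM ranged from 386 in transcriptome 1 to 12313 in transcriptome 67, with a median of 4490.5 and a mean of 4626 ± 2607 (SD, n = 75). It was nearly unrelated to estimated reads (rho 0.0417) and weakly related to genes above 0 (rho 0.231). Without Rab31 the median sum was 2344 CPM and the range 334 to 6841. The share of Rab31 in a cell's sum ran from 0% to 89.8% with a median of 32.9%. Per kb, Rab31 was the highest member in 31 cells, Rab14 in 9, Rab7 in 6 and Rab8b in 4, and 21 different members led in at least 1 cell. The share of the leading member in a cell's sum per kb ran from 18.4% to 90.6%, with a median of 48.0%.

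**Figure D3:**
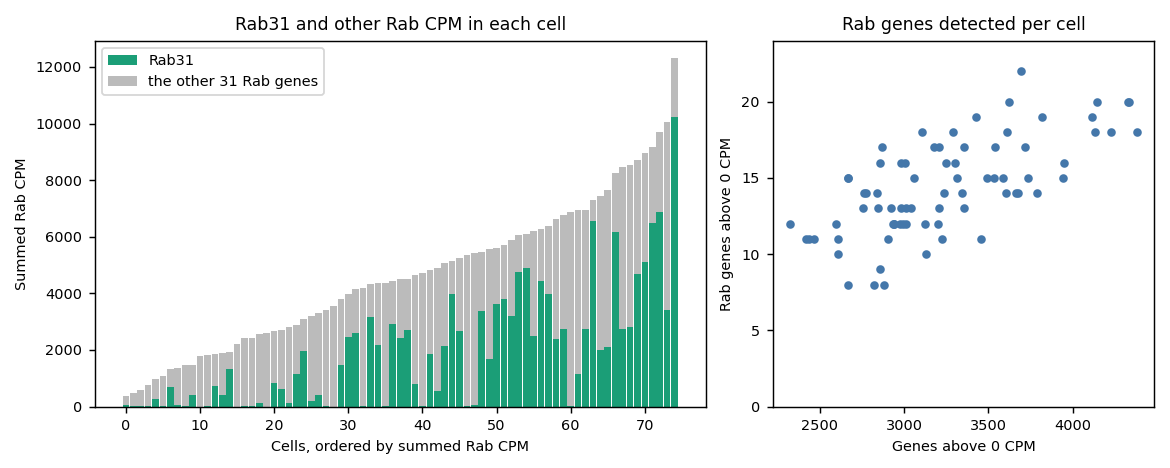
Left, summed Rab CPM (y axis) of each of the 75 cells in rising order (x axis), divided into Rab31 (green) and the other members (grey). Right, number of Rab genes above 0 (y axis) against all genes above 0 (x axis), each point 1 cell; Rab31 ranges from 0% to 89.8% of a cell's sum.

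The mean correlation between Rab genes from cell to cell was close to 0 and to that between all genes. Over 21 members above 0 in at least 20 cells, the 210 pairs had a mean Spearman rho of 0.0212 (SD 0.118 over pairs), and 117 were positive and 93 negative. All pairs of the 4736 genes that pass the same filter had a mean of 0.0166 (SD 0.120). A rho beyond 0.3 in size was seen in 1 member pair (0.476%) and in 1.28% of all pairs. For scale, the same measure was 0.488 for 9 MHC class II genes, 0.404 for 12 genes of tissue-resident macrophages, 0.352 for 5 monocyte-derived genes and 0.0710 for 22 lysosome genes. Given the number of genes above 0 in each cell, the mean partial rho of the Rab pairs was -0.00746.

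The highest pair was Rab11a with Rab12 (rho 0.337, r 0.341, both above 0 in 28 cells). It was followed by Rab11a with Rab2a (0.296), Rab14 with Rab21 (0.285), Rab11b with Rab31 (0.274) and Rab12 with Rab2a (0.264). The most negative were Rab10 with Rab8b (-0.250), Rab14 with Rab6a (-0.232), Rab5c with Rab8b (-0.224), Rab18 with Rab32 (-0.216) and Rab21 with Rab5c (-0.214). Correlations of this size over sparse values from cells of unequal depth are given as a description and set none of these pairs apart.

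**Figure D4:**
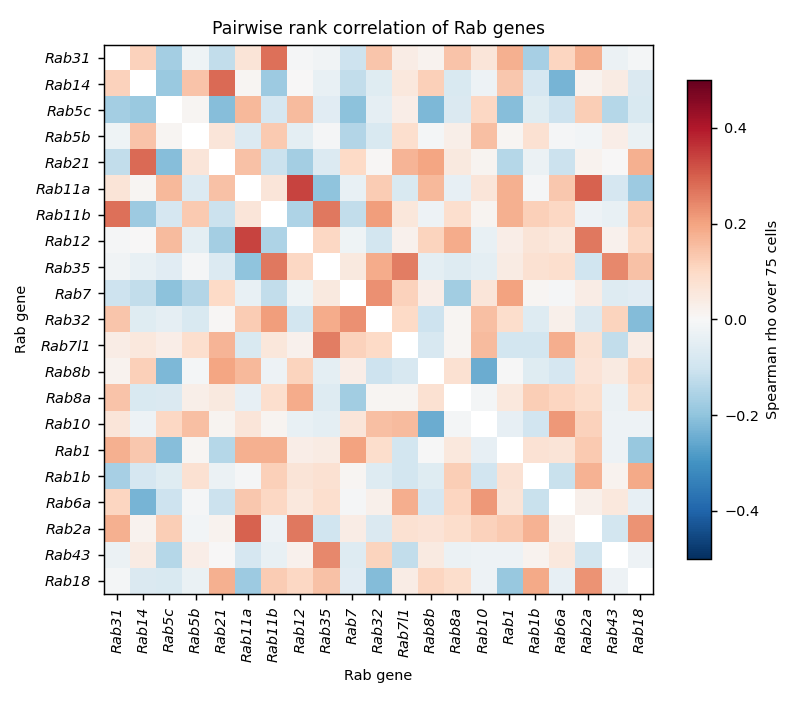
Spearman rho over 75 cells for each pair of the 21 Rab genes above 0 in at least 20 cells (x and y axes, in order of role); red is positive, blue negative, and the diagonal is left blank. Pairs run from -0.250 to 0.337, and no block of genes with a common role stands out.

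Close relatives were found both together and alone. Of 12 pairs examined, rho ran from -0.149 (Rab6a with Rab6b) to 0.148 (Rab5a with Rab5b). Rab11a and Rab11b were both at 10 CPM in 18 cells, each alone in 18, and both under it in 21. Rab8a and Rab8b were both at 10 CPM in 13 cells, Rab8b alone in 34 and Rab8a alone in 11. Rab1 and Rab1b were together at that level in 15 cells, with Rab1 alone in 27 and Rab1b alone in 11. Rab2a with Rab2b and Rab6a with Rab6b were at 10 CPM together in 0 of 75 cells. By the approximate bound of 3 cells for a count of 0, this allows a share of up to 4.00% of cells. The rarer partner reached 10 CPM in 5 and 6 cells. Rab31 exceeded Rab22a per kb in 71 cells.

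**Figure D5:**
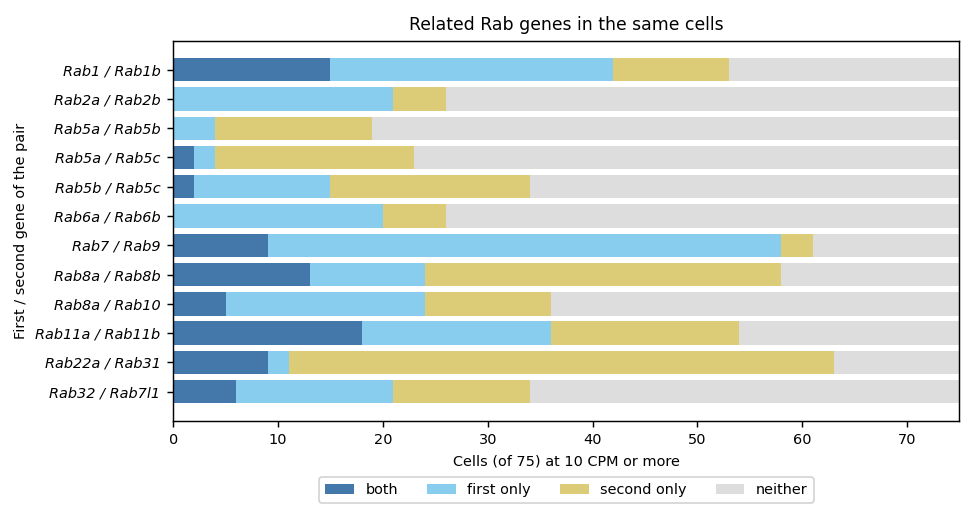
Number of the 75 cells (x axis) in which both, only the first, only the second or neither gene of a related pair (y axis) reached 10 CPM. Rab11a and Rab11b are together in 18 cells, and the pairs Rab2a with Rab2b, Rab6a with Rab6b and Rab5a with Rab5b in 0.

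The genes that run the Rab cycle were measured from a list of 156, of which 111 had a row. A share of 50% of the cells was reached by 21 of these (18.9%) above 0 and by 6 (5.41%) at 10 CPM, against 23.9% and 8.88% of all genes. GDI and prenylation genes reached the first share in 3 of 8 cases, GEF genes in 9 of 36, effectors in 7 of 43 and GAP genes in 2 of 24. Gdi2, the inhibitor that extracts Rab proteins from membranes, was above 0 in every cell, from 0.4 to 6644 CPM with a median of 846. Rabac1, a prenylated Rab acceptor, was above 0 in 61 cells, and Rabggta, a subunit of the enzyme that attaches the lipid anchor, in 31.

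Among GEF genes Dennd5a was above 0 in 64 cells, Rab3il1, an exchange factor for Rab8 and Rab3, in 63, Trappc4, a subunit of the TRAPP complex that activates Rab1, in 61, and Rin2, which acts on Rab5, in 59. Among effectors Myo5a, a myosin motor, was above 0 in 60 cells, Trip11, a golgin, in 48, Plin3, known to bind Rab9, in 47 and Ehbp1l1 in 46. Among GAP genes Tbc1d14 was above 0 in 43 cells, Tbc1d15, which acts on Rab7, in 38, and Evi5 and Rab3gap1 in 35 each. All but 2 of the 24 GAP genes were above 0 in fewer than 50% of the cells.

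The median correlation of Rab genes with a list of known partners lay near that with the rest of the machinery. Over 51 pairs of a member with an established GEF, GAP or effector the median rho was 0.00209 (from -0.198 to 0.210), and 27 were positive. Over the other 1188 pairs of members and machinery genes it was 0.0147 (from -0.362 to 0.464). The ranges are not compared, because the larger set can reach further by its size. The list of partners is not complete, so these other pairs can include further partners. The highest partner pairs were Rab18 with Rab3gap2 (0.210) and Rab5c with Zfyve20 (0.202).

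Member levels were also set against scores of MHC class II, lysosome, tissue-resident and monocyte-derived genes, each the mean of standardised log2(CPM + 1). The 84 correlations of 21 members with 4 scores ran from -0.374 to 0.269, and 1 was beyond 0.3 in size: Rab43 with the tissue-resident score (-0.374). Rab43 is 1 of the members whose exons lie mostly under another gene, and its highest cell supplied 57.0% of its CPM. Rab7 had a rho of 0.260 and Rab32 of 0.253 with the lysosome score, and Rab8b of 0.269 with the monocyte-derived score. Rab31 had 0.188 with the lysosome and -0.115 with the MHC class II score. How often other genes of the table reach such values with these scores was not counted. The values are therefore a description and set no member apart. For 20 of the 21 members rho with genes above 0 was positive, up to 0.319 for Rab5b. Each gene adds to that number itself, and the share of positive values over all genes was not counted. The part of detection in these correlations was not tested beyond the partial values above.

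Among 4715 other genes above 0 in at least 20 cells, the patterns most like the summed Rab CPM were those of Rnh1, a ribonuclease inhibitor (rho 0.391), 2310035C23Rik (0.387), Tmed2, a cargo receptor of early secretory vesicles (0.385), Polr1b (0.369) and Plxnb2 (0.349), over 75 cells. The most opposed were Sept7 (-0.394), Ankrd17 (-0.352), Snx18 (-0.340), Arhgdib (-0.337) and Ccdc134 (-0.324). With Rab31 taken out of the sum, rho was 0.0520 for Rnh1 and between 0.214 and 0.271 for 2310035C23Rik, Tmed2, Polr1b and Plxnb2. It was -0.328 for Ccdc134, -0.307 for Ankrd17, -0.239 for Arhgdib, -0.188 for Snx18 and -0.141 for Sept7. All genes named here were picked as the extremes of the 4715 ranked. For scale, rho over all pairs of the 4736 genes passing the same filter had a mean of 0.0166 and an SD of 0.120. How far such a ranking would reach by chance was not tested, so the list is given as a description.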

How the data were processed

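Single-cell RNA was measured in 76 libraries labelled as single AV node macrophages. The table deposited by the authors gives 9235 genes in CPM, counts per 1000000, to 1 decimal; each column sums to that total within rounding and each gene is above 0 in at least 6 libraries. Per the submitters' processing notes, HTSeq 0.6.0 and STAR 2.3.0 were used with build mm9; annotation and filters are not given in the sources used here.

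The CPM of 1 read was estimated per library as the largest step of which at least 95% of the values up to 60 steps were whole multiples within 0.053 CPM (tested on simulated data: 10 of 10 depths were recovered within 1%). In the poorest library 95.8% of these low values were whole, which is no separate test because a step was accepted only at 95% or more. The simulated libraries held whole reads by design, and their depths stopped short of the deepest real libraries. In deep libraries the tolerance is a large part of a step. Over all values, a sizeable minority of the libraries did not give whole reads, so depths, thinned counts and correlations with reads are estimates. CPM values were divided by that step and rounded to reads, from which 250000 per cell were drawn without replacement for thinning (all 75 cells had enough). No count model was fitted: there is 1 group. Shares carry exact 95% Clopper-Pearson intervals. A count of 0 cells was instead given an approximate upper bound of 3 cells. Correlations are Spearman over cells, with Pearson on log2(CPM + 1), without p-values. Exon lengths, overlaps and 50-base words come from GENCODE M21 (another build, so used without coordinates); 30 members matched current and 2 older symbols. RAB1 was read as Rab1a because Rnase4, which shares that older name, has its own row. Role groups, machinery and relative pairs are textbook lists, and partner pairs were added later; members and lists were chosen with earlier results of these data known. All members are reported. Values in full are given for the 3 most widely detected members per role and those above 0 in at least 50% of cells, and other genes by rank: 3 largest and smallest SD over mean, 5 highest and lowest pair correlations and likenesses, and 4 genes per machinery class, of which 1 is not reported here. No doublet caller was run, and every library was kept, transcriptomes 13 and 19 as their mean. Python 3.11.15, numpy 2.4.6 and scipy 1.17.1 were used.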

Additional observations from a re-analysis of the deposited data

How the results depend on the processing

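The number of Rab members above 0 in at least 50% of the cells, 12, was 5 at 10 CPM and 7 after thinning to 250000 reads, and the mean number per cell, 14.4, was 8.72 and 11 under the same changes. With all 76 libraries, after dropping the cells with fewest genes above 0 (56 cells left), or with transcriptomes 13 and 19 both left out (added after seeing the data), the count was 12, 14 and 13. The mean pair correlation, 0.0212, stayed between -0.00877 and 0.0222 in 12 alternatives; it was -0.00746 given genes detected, and, in alternatives added after seeing the data, 0.0111 in the 38 cells with fewer and -0.00877 in the 37 cells with more genes detected. The median summed Rab CPM of 4490.5 fell to 2344 without Rab31, also added later. Of 40 values of the 10 named pairs under alternatives, 0 changed sign and 2 moved by more than the spread over pairs: Rab12 with Rab2a to 0.0982 in those 56 cells, and Rab5c with Rab8b to -0.344 with values below 10 CPM set to 0. The 10 named pairs were picked as extremes in these same cells, most of which each alternative uses again. A kept sign is therefore no independent test of them. Over all genes, 45.5% of values above 0 lay below 10 CPM. After thinning, the rarest members were above 0 in 6 cells (Rab5a, 6 before), 6 (Rab2b, 7 before) and 4 (Rab20, 7 before). No paired analysis was possible because there is only 1 group.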
